A study of Homo sapiens with 18 samples.

Results

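The genes described here are 10 enzymes that make or rework the amino acids serine, asparagine, proline and cysteine and the one-carbon units derived from serine. They are PHGDH, PSAT1 and PSPH (serine synthesis), SHMT2 and MTHFD2 (mitochondrial one-carbon metabolism), ASNS (asparagine synthesis), ALDH18A1 and PYCR1 (proline synthesis), and CBS and CTH (transsulfuration). The rule takes them by symbol and uses no measured value, though they were chosen with earlier results of these data known. All 10 were found among the 23686 gene symbols of the tables of both cell lines. RNA came from OCI-Ly1 and TMD8, established human lines of diffuse large B-cell lymphoma, in a study of heterochromatin in lymphoma. Cells of each line were treated with the vehicle alone (0.01% DMSO) or with JIB-04 at 150 nM or at 500 nM. JIB-04 is a small-molecule inhibitor of the Jumonji-domain histone demethylases. No group carried a transgene, knockdown or other agent by its labels. OCI-Ly1 grew in IMDM and TMD8 in RPMI 1640, with the same serum and antibiotics, so line and medium changed together; treatment time, batch and date are not given in the sources used here. Each of the 6 groups had 3 libraries, made as technical triplicates, and the labels do not say whether they came from separate cultures. The p-values below therefore measure only the spread between these libraries, which may be technical.

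Serine is built from the glycolytic intermediate 3-phosphoglycerate in a short pathway opened by PHGDH, and its side carbon is moved onto folate in mitochondria by SHMT2 and MTHFD2 to feed purine and thymidylate synthesis. Asparagine, proline and cysteine are made by separate short branches that draw on aspartate, glutamate and homocysteine. Many of these enzymes are textbook targets of ATF4, the transcription factor of the integrated stress and amino acid response, which binds with C/EBP partners to a composite element known from promoters such as that of ASNS. Proliferating lymphoid cells are known to rely on serine and folate metabolism for nucleotide synthesis.

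Library totals ran from 9550092 to 32651115 estimated counts, with the lowest total in the third 500 nM library of TMD8, and correlations of log2 counts between libraries of a group ran from 0.990 to 0.994. In TMD8 the single row MIR3687 held 15.2% to 24.4% of all the TPM of a library (transcripts scaled for length to a sum of 1000000), against 6.33% to 10.6% for the leading row, RPPH1, in OCI-Ly1. Its share therefore bears on every TPM value of TMD8. The B-cell label held: MS4A1, CD79A, CD79B and PAX5 had group means from 98.8 to 1477 counts per 1000000 (CPM). Markers of T cells (3 genes) summed to at most 6.74 CPM and markers of myeloid cells (3 genes) to at most 3.59 CPM in any library, and in TMD8 the T-cell sum did not exceed 0.205 CPM. The T-cell sum was 6.10 to 6.74 CPM with DMSO and 2.44 to 2.64 CPM at 500 nM in OCI-Ly1; its part in the results was not tested. These are bulk samples, in which fewer cells expressing a gene and less RNA per cell cannot be told apart.

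Most of the 10 enzymes were higher with JIB-04 in both lines, CTH by the largest change, and ALDH18A1 was the member that fell. Levels are given as TMM-normalised CPM for each library, and a gene was called when its adjusted p in edgeR's quasi-likelihood test, corrected over all genes tested, was under 0.05. In OCI-Ly1 at 150 nM, 8 members were called higher and 0 lower, where 0.889% of the 15638 genes tested were called (0.748% higher, 0.141% lower). At 500 nM in the same line 9 were higher and 1 lower, against 53.6% of the tested genes called (27.7% higher, 25.9% lower). Between 150 nM and 500 nM 9 members rose further and ALDH18A1 fell further, against 46.2% of genes called (25.1% higher, 21.1% lower). In TMD8 at 150 nM 6 members were higher and 1 lower, where 44.2% of 15363 genes were called (19.2% higher, 25% lower). At 500 nM 7 were higher and 1 lower, against 60.7% of genes (29.9% higher, 30.7% lower), and between the doses 5 were higher and 1 lower, against 28.7% (13.7% higher, 15% lower).

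Many single genes were also free of overlap between the libraries of 2 groups, in the members and outside them. In OCI-Ly1 9 members lay wholly above and 1 wholly below the DMSO libraries at 150 nM, where 6.73% and 7.29% of genes did. The same counts held at 500 nM, against 31.3% and 29.3% of genes, and between the doses, against 29.8% and 25.8%. In TMD8 6 members lay wholly above and 1 below DMSO at 150 nM (23.1% and 28.3% of genes), 7 above and 2 below at 500 nM (33.1% and 33.3%), and 5 above and 2 below between the doses (22.6% and 22.2%). The shares at 500 nM show that both call and separation were common among all genes there.

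The median log2 change of the 10 members in OCI-Ly1 was 0.42 at 150 nM and 1.36 at 500 nM, beside -0.00 over all tested genes at both doses. In TMD8 it was 0.49 at 150 nM and 0.88 at 500 nM, beside 0.01 and 0.04 over all genes. The 2 lines share no control libraries, and 6 of 10 members were called higher in both at 150 nM, against 0.525% of the 14483 genes tested in both. At 500 nM 7 members were higher in both lines and 1 lower in both, against 14.1% and 13.7% of genes. The plot of levels by library shows each member in all 18 libraries.

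**Figure D1:**
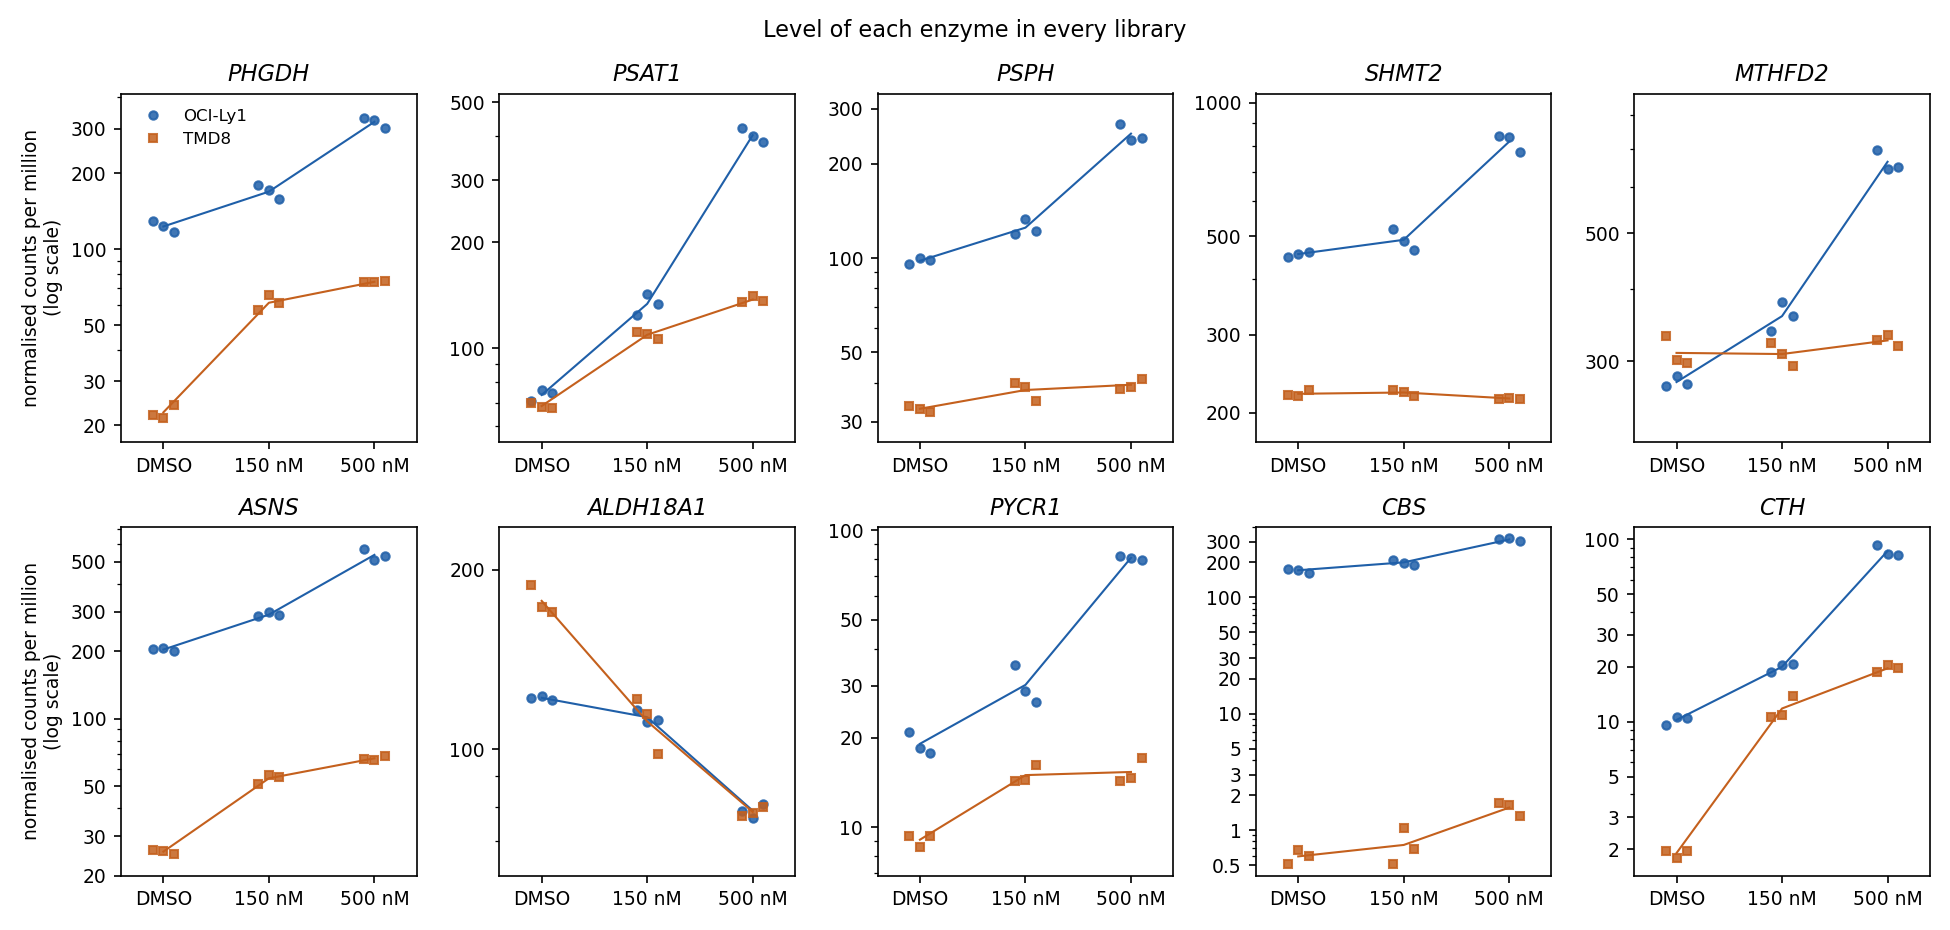
TMM-normalised counts per 1000000 of each enzyme (log axis, a separate range for each gene) with DMSO, 150 nM and 500 nM JIB-04 in OCI-Ly1 (circles) and TMD8 (squares); each point is 1 library and lines join the means of 3. In OCI-Ly1 9 enzymes climb mainly between 150 nM and 500 nM, and in TMD8 PHGDH, ASNS and CTH climb mainly between DMSO and 150 nM. ALDH18A1 falls to about the same CPM in both lines, though its means at 500 nM are 32.5 TPM in OCI-Ly1 and 12.6 TPM in TMD8.

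Promoter sequence of RefSeq (build GRCh38.p14) was found for 7 of the 10 members; PSPH, SHMT2 and PYCR1 were not matched. 3 windows are shown, those of the textbook ATF4 target ASNS, of CTH, the member with the largest rise, and of ALDH18A1, the member that fell. Each is the 250 bases before the annotated gene start, read 5′ to 3′ on the strand of the gene, and capitals mark a match to the motif TGATGNAAN, the core of the C/EBP-ATF element, searched on both strands. ASNS lies on the minus strand at chr7:97872409-97872658, ALDH18A1 on the minus strand at chr10:95656712-95656961, and CTH on the plus strand at chr1:70411018-70411267.
ASNS: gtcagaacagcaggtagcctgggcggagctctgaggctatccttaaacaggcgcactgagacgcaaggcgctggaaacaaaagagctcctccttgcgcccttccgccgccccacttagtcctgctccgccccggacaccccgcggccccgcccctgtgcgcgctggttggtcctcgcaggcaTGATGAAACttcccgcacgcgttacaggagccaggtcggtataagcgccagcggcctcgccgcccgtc
ALDH18A1: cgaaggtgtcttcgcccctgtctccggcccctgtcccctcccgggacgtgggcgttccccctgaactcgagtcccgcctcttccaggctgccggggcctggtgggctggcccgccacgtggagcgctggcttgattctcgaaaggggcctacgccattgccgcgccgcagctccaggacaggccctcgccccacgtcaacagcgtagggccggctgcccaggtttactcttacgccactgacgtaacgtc
CTH: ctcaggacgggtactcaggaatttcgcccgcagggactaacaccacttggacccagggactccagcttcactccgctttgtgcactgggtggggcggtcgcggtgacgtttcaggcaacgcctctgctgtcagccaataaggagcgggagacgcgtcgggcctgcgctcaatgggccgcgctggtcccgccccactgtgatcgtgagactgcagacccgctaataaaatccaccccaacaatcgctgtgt
The ASNS window held the motif as TGATGAAAC, starting 68 bases before the gene start. No match was found in the ALDH18A1 or CTH window. Over the 300-base windows of the table, which run 50 bases past the start, 1 of the 10 windows of members and 1 of the 7 members with a window held a match, against 3.61% of 35116 windows and 4.45% of 27305 genes. A match is a description of these letters and not evidence of binding, and the motif can lie outside the window.

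PHGDH, which oxidises 3-phosphoglycerate and opens serine synthesis, rose in both lines at both doses. In OCI-Ly1 its level was 129, 123 and 117 CPM with DMSO, 179, 171 and 157 CPM at 150 nM and 331, 326 and 301 CPM at 500 nM. In TMD8 it was 22.0, 21.5 and 24.2 CPM with DMSO, 57.3, 65.6 and 60.9 CPM at 150 nM and 73.8, 73.8 and 75.0 CPM at 500 nM. No library of one dose overlapped another dose in either line. The log2 change in OCI-Ly1 was 0.46 (SE 0.06, adjusted p = 3.2e-04 in edgeR) at 150 nM and 1.38 (SE 0.06, 2.2e-12) at 500 nM. In TMD8 it was 1.44 (SE 0.07, adjusted p = 9.9e-11 in edgeR) and 1.72 (SE 0.07, 8.9e-13), so that most of the response was already present at the lower dose.

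PSAT1, the aminotransferase of the second step, changed most of the serine enzymes in OCI-Ly1. Its level there was 70.5, 75.9 and 74.3 CPM with DMSO, 124, 143 and 134 CPM at 150 nM and 424, 400 and 385 CPM at 500 nM, again without overlap. That is a log2 change of 0.86 (SE 0.06, adjusted p = 1.1e-07 in edgeR) and 2.46 (SE 0.06, 2.5e-15), or 5.48-fold at 500 nM. TMD8 began from about the same CPM, at 69.8, 68.0 and 67.5 CPM with DMSO, though its mean was 23.4 TPM beside 45.0 TPM in OCI-Ly1. PSAT1 of TMD8 reached 111, 110 and 106 CPM at 150 nM and 135, 141 and 136 CPM at 500 nM. The groups of TMD8 did not overlap either, but its rise was smaller, 0.67 (SE 0.05, adjusted p = 6.4e-09 in edgeR) and 1.01 (SE 0.05, 5.1e-12) on the log2 scale.

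PSPH, the phosphatase that releases serine, was called higher in all 4 comparisons with DMSO, by more than 2-fold only at 500 nM in OCI-Ly1. Its OCI-Ly1 levels were 95.9, 99.8 and 98.4 CPM with DMSO, 119, 133 and 122 CPM at 150 nM and 268, 238 and 242 CPM at 500 nM. The log2 change was 0.35 (SE 0.06, adjusted p = 0.0047 in edgeR) at 150 nM and 1.35 (SE 0.06, 3.0e-12) at 500 nM. In TMD8 PSPH had 33.8, 33.0 and 32.3 CPM with DMSO, 39.8, 38.8 and 35.1 CPM at 150 nM and 38.2, 38.8 and 41.2 CPM at 500 nM. The treated libraries of TMD8 all lay above the DMSO libraries, by 0.19 (SE 0.06, adjusted p = 0.021 in edgeR) at 150 nM and 0.25 (SE 0.07, 0.0030) at 500 nM, and the doses overlapped each other. The 150 nM call of TMD8 was lost without the third DMSO library (adjusted p = 0.065 in edgeR) or the first or the second 150 nM library (0.082 and 0.080), and the 150 nM call of OCI-Ly1 without its second 150 nM library (0.051). The TMD8 calls of PSPH were also lost on TPM. At 500 nM the value was -0.11 on log2(TPM + 1) (limma adjusted p = 0.34), where the median of all TMD8 genes moved by -0.22, and 0.14 (0.058) once each library was centred. At 150 nM it was 0.039 (limma adjusted p = 0.79) and, centred, 0.14 (0.096). The 150 nM call of OCI-Ly1 was lost there too, at 0.38 (limma adjusted p = 0.054) and, centred, 0.34 (0.11).

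SHMT2, the mitochondrial enzyme that splits serine into glycine and a folate-bound carbon, was called higher at 500 nM in OCI-Ly1, and its TMD8 values depended on the scaling. Its level in OCI-Ly1 was 450, 457 and 462 CPM with DMSO, 521, 488 and 465 CPM at 150 nM and 840, 838 and 776 CPM at 500 nM. The 150 nM libraries lay just above those with DMSO, with a log2 difference of 0.11 (95% interval 0.00 to 0.21, adjusted p = 0.47 in edgeR), and the 500 nM libraries lay far above both, at 0.84 (SE 0.05, 1.5e-10). In TMD8 SHMT2 had 220, 218 and 225 CPM with DMSO, 225, 223 and 219 CPM at 150 nM and 215, 216 and 215 CPM at 500 nM. The log2 differences from DMSO were 0.01 (95% interval -0.08 to 0.10, adjusted p = 0.88 in edgeR) and -0.04 (-0.12 to 0.05, 0.48). At 150 nM the TMD8 value was called higher with library size as the only scaling (0.094, adjusted p = 0.046 in edgeR). At 500 nM, where the TMD8 libraries lay wholly below those with DMSO, it was called lower on log2(TPM + 1) (-0.40, limma adjusted p = 9.9e-04) and also with each library centred (-0.15, 0.013), but had a positive sign with library size alone (0.057, adjusted p = 0.19 in edgeR). The 500 nM interval lies below the 0.84 of OCI-Ly1 at that dose, while the 150 nM interval overlaps that of OCI-Ly1. The difference between the lines is tested below with the others.

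MTHFD2, which oxidises the folate-bound carbon in mitochondria, showed the same split between the lines at 500 nM. In OCI-Ly1 it had 272, 283 and 274 CPM with DMSO, 339, 380 and 359 CPM at 150 nM and 697, 645 and 650 CPM at 500 nM, with no overlap between doses. The log2 change was 0.38 (SE 0.05, adjusted p = 4.3e-04 in edgeR) at 150 nM and 1.27 (SE 0.05, 8.5e-13) at 500 nM. In TMD8 MTHFD2 had 332, 301 and 298 CPM with DMSO, 323, 310 and 294 CPM at 150 nM and 326, 333 and 319 CPM at 500 nM. All 3 groups of TMD8 overlapped, with log2 differences of -0.01 (95% interval -0.12 to 0.10, adjusted p = 0.92 in edgeR) and 0.07 (-0.04 to 0.18, 0.24). These 2 values depended on scaling and on 1 library. At 500 nM the difference was called higher with library size as the only scaling (0.17, adjusted p = 0.0028 in edgeR) and without the first DMSO library (0.12, 0.030). On log2(TPM + 1) it was called lower (-0.30, limma adjusted p = 0.022), and with each library centred it was not (-0.050, 0.49). The 150 nM call of OCI-Ly1 was lost on centred log2(TPM + 1) (0.38, limma adjusted p = 0.057).

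The partner enzymes of the same folate steps did not follow as a block. At 500 nM SHMT1, the cytosolic counterpart of SHMT2, had a log2 difference of -0.02 (SE 0.05, adjusted p = 0.77 in edgeR) in OCI-Ly1, and in TMD8 it fell by 0.27 (SE 0.07, 0.0021). MTHFD1, the cytosolic enzyme with 3 folate activities, fell by 0.27 (SE 0.05, adjusted p = 2.2e-04 in edgeR) in OCI-Ly1 and by 0.87 (SE 0.05, 1.1e-10) in TMD8. MTHFD1L, which releases formate inside mitochondria, rose by 0.91 (SE 0.07, adjusted p = 3.1e-09 in edgeR) in OCI-Ly1 and by 0.45 (SE 0.07, 9.9e-06) in TMD8. MTHFD2L, the mitochondrial relative of MTHFD2, was at 7.74 to 8.74 CPM in the DMSO and 500 nM libraries of OCI-Ly1, with a difference of -0.03 (95% interval -0.27 to 0.21, adjusted p = 0.83 in edgeR), and in TMD8 its difference was -0.23 (-0.59 to 0.13, 0.26). In OCI-Ly1 at 500 nM SHMT2 stood at 527 TPM beside 49.8 TPM for SHMT1, and MTHFD2 at 440 TPM beside 5.02 TPM for MTHFD2L. The changes in OCI-Ly1 of SHMT1 and MTHFD2L took a positive sign with library size alone (0.07 and 0.06) and on log2(TPM + 1) (0.11 and 0.08), and that of MTHFD1L in TMD8 became -0.03 on log2(TPM + 1), none of these values past the threshold. On the same scale the MTHFD1 fall in OCI-Ly1 was no longer called (-0.13, limma adjusted p = 0.10), while MTHFD2L in TMD8 was called lower (-0.35, 0.011).

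**Figure D2:**
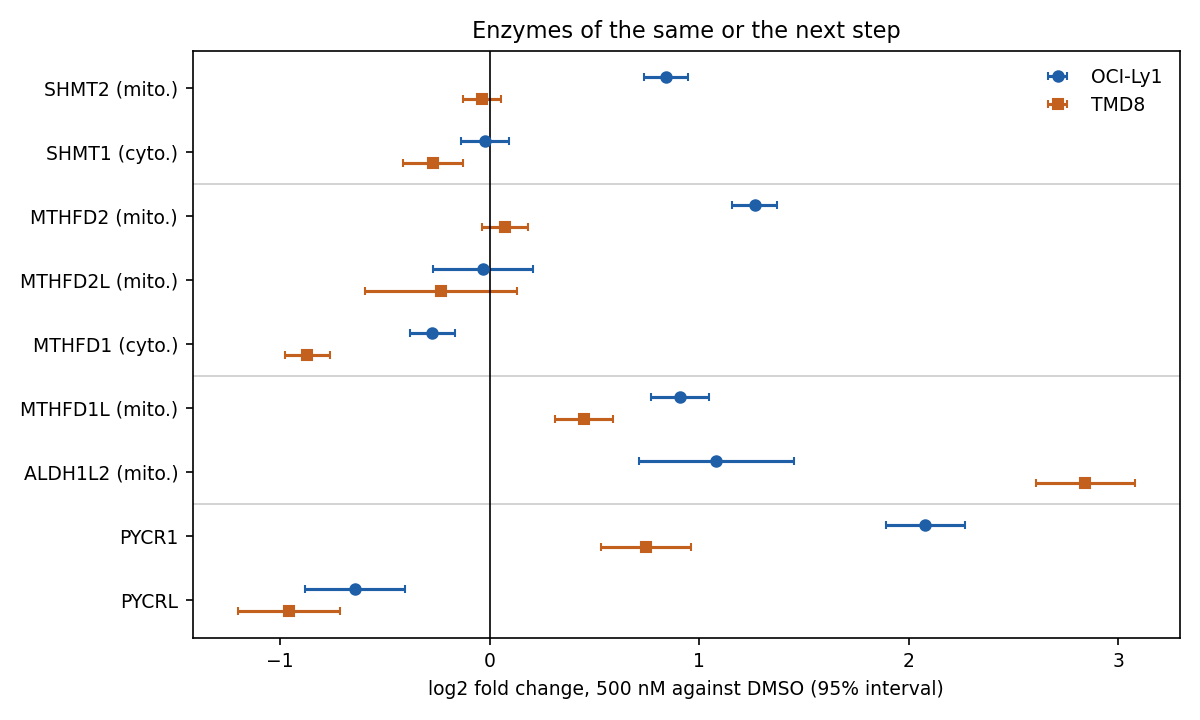
log2 fold change at 500 nM against DMSO with its 95% interval for SHMT2, MTHFD2 and PYCR1 and for enzymes of the same or the next step, in OCI-Ly1 (circles) and TMD8 (squares); grey lines part the steps, and the words mito. and cyto. give the compartment as background. SHMT2 and MTHFD2 lie near 0 in TMD8 and at 0.84 and 1.27 in OCI-Ly1, while MTHFD1 and PYCRL lie below 0 in both lines.

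ASNS, which makes asparagine from aspartate and glutamine, rose in both lines, at 500 nM to nearly the same extent by the edgeR fit. In OCI-Ly1 its level was 204, 206 and 200 CPM with DMSO, 287, 298 and 289 CPM at 150 nM and 572, 510 and 529 CPM at 500 nM. In TMD8 it was 26.1, 25.7 and 25.0 CPM with DMSO, 51.5, 56.4 and 55.1 CPM at 150 nM and 66.2, 65.7 and 68.0 CPM at 500 nM. No dose overlapped another in either line. At 150 nM the log2 change was 0.52 (SE 0.05, adjusted p = 7.7e-06 in edgeR) in OCI-Ly1 and 1.09 (SE 0.06, 6.3e-10) in TMD8. At 500 nM it was 1.40 (SE 0.05, adjusted p = 1.6e-13 in edgeR) and 1.38 (SE 0.06, 2.4e-12).

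The 2 enzymes of proline synthesis moved in opposite directions. ALDH18A1, which turns glutamate into the semialdehyde that opens the branch, fell in both lines. In OCI-Ly1 it had 122, 123 and 121 CPM with DMSO, 117, 111 and 112 CPM at 150 nM and 78.8, 76.6 and 81.0 CPM at 500 nM. The 150 nM libraries lay below the DMSO libraries by a log2 difference of -0.11 (95% interval -0.22 to 0.00, adjusted p = 0.50 in edgeR), and the 500 nM libraries lay lower again, at -0.63 (SE 0.05, 1.8e-08). In TMD8 ALDH18A1 started higher on the CPM scale, at 189, 173 and 170 CPM, and reached 122, 114 and 98.0 CPM at 150 nM and 77.2, 78.1 and 80.0 CPM at 500 nM. Its log2 change there was -0.68 (SE 0.06, adjusted p = 3.2e-07 in edgeR) and -1.18 (SE 0.07, 9.4e-11), and all 3 groups were apart.

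PYCR1, the mitochondrial reductase of the last step to proline, rose in both lines. In OCI-Ly1 it had 21.0, 18.5 and 17.8 CPM with DMSO, 35.2, 28.9 and 26.5 CPM at 150 nM and 82.2, 80.9 and 79.6 CPM at 500 nM, with all groups apart. The log2 change was 0.66 (SE 0.09, adjusted p = 7.7e-04 in edgeR) and 2.08 (SE 0.09, 2.2e-12). In TMD8 PYCR1 had 9.33, 8.58 and 9.31 CPM with DMSO, 14.3, 14.4 and 16.2 CPM at 150 nM and 14.3, 14.7 and 17.1 CPM at 500 nM. Both doses lay above DMSO and overlapped each other, at 0.73 (SE 0.10, adjusted p = 1.2e-05 in edgeR) and 0.75 (SE 0.10, 4.5e-06). At 500 nM its paralogue PYCRL, the older symbol of PYCR3, the cytosolic form, fell on the log2 scale by 0.64 (SE 0.11, adjusted p = 1.4e-04 in edgeR) in OCI-Ly1 and by 0.96 (SE 0.12, 1.2e-06) in TMD8.

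CTH, which releases cysteine from cystathionine, had the largest change of the 10 members in both lines. In OCI-Ly1 it went from 9.60, 10.6 and 10.5 CPM with DMSO to 18.8, 20.4 and 20.8 CPM at 150 nM and 93.3, 83.1 and 82.0 CPM at 500 nM. In TMD8 it went from 1.97, 1.79 and 1.96 CPM to 10.7, 10.9 and 13.9 CPM and then 18.7, 20.6 and 19.6 CPM. No 2 groups of a line overlapped. The log2 change in OCI-Ly1 was 0.97 (SE 0.09, adjusted p = 3.3e-06 in edgeR) at 150 nM and 3.08 (SE 0.08, 3.7e-15) at 500 nM, and in TMD8 it was 2.64 (SE 0.15, 7.8e-10) and 3.36 (SE 0.14, 2.0e-12). As folds over DMSO, the 500 nM changes were 8.44 in OCI-Ly1 and 10.2 in TMD8.

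CBS, which joins homocysteine to serine upstream of CTH, was abundant in OCI-Ly1 and near the limit of detection in TMD8. In OCI-Ly1 it had 176, 173 and 163 CPM with DMSO, 210, 199 and 191 CPM at 150 nM and 317, 322 and 304 CPM at 500 nM, without overlap. The log2 change was 0.23 (SE 0.05, adjusted p = 0.049 in edgeR) at 150 nM and 0.88 (SE 0.05, 1.8e-10) at 500 nM. The call at 150 nM was lost without any of the 3 DMSO libraries (edgeR adjusted p from 0.060 to 0.14), without the first or the second 150 nM library (0.064 and 0.15), with the 6 libraries of the 2 groups alone (0.13), and on log2(TPM + 1) (0.25, limma adjusted p = 0.17). In TMD8 CBS had 8, 12 and 12 counts with DMSO, 7, 15 and 14 counts at 150 nM and 26, 22 and 13 counts at 500 nM among library totals of 9550092 to 20509500. Its log2 change there was 0.31 (95% interval -0.39 to 1.02, adjusted p = 0.49 in edgeR) at 150 nM and 1.39 (0.76 to 2.03, 6.4e-04) at 500 nM, on 0.595 CPM with DMSO and 1.56 CPM at 500 nM. CBSL, annotated elsewhere as a near-identical copy of CBS, is not among the gene symbols here, and its part in the CBS counts was not tested.

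**Figure D3:**
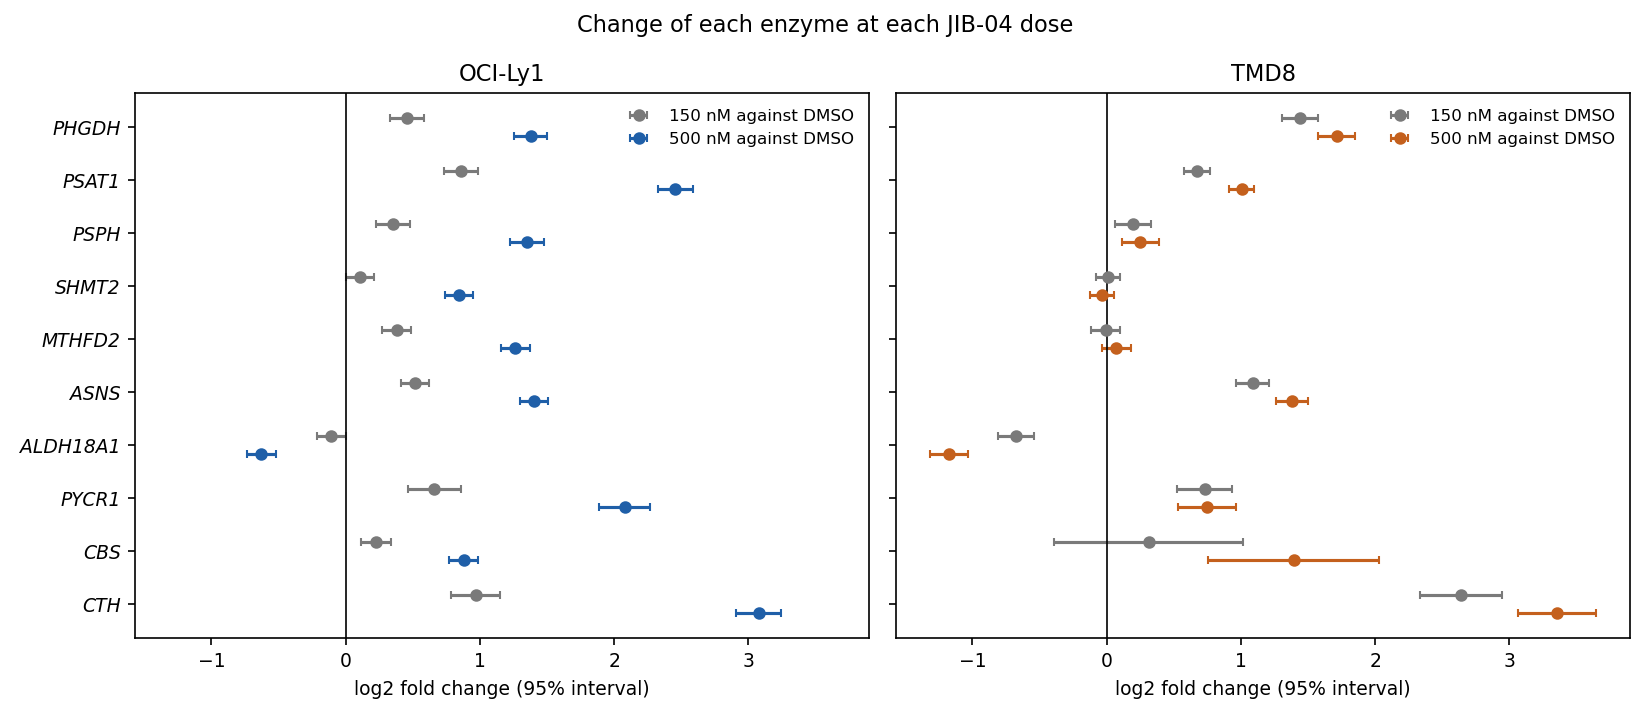
log2 fold change of each enzyme against DMSO with its 95% interval at 150 nM (grey) and 500 nM (coloured) in OCI-Ly1 (left) and TMD8 (right), from edgeR fits of the 9 libraries of each line. The grey and coloured points stand well apart for all members in OCI-Ly1 and close together for PHGDH, ASNS and PYCR1 in TMD8; SHMT2 and MTHFD2 of TMD8 lie near 0 with this scaling.

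The dose at which the change appeared differed between the lines. In OCI-Ly1 the log2 change at 150 nM came to between 12.7% (SHMT2) and 36.9% (ASNS) of that at 500 nM over the 10 members. In TMD8, over the 8 members called at 500 nM, it was 97.8% for PYCR1, 84.0% for PHGDH, 78.7% for ASNS and CTH, 77.4% for PSPH, 66.9% for PSAT1, 57.4% for ALDH18A1 and 22.4% for CBS. The step from 150 nM to 500 nM was called for all 10 members in OCI-Ly1. In TMD8 it was called higher for PHGDH (0.28, adjusted p = 0.0021 in edgeR), PSAT1 (0.33, 2.9e-05), ASNS (0.29, 6.4e-04), CTH (0.71, 8.5e-05) and CBS (1.08, 0.010), and lower for ALDH18A1 (-0.50, 3.9e-05). The CBS call did not hold without the first 150 nM library (adjusted p = 0.055 in edgeR) or the first 500 nM library (0.054), or with DESeq2 (0.070). On log2(TPM + 1) the steps of PHGDH (0.06, limma adjusted p = 0.64), PSAT1 (0.10, 0.39) and ASNS (0.07, 0.58) were not past the threshold either, where the median of all genes moved by -0.14.

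Whether the lines responded differently was tested in a fit of all 18 libraries, as the log2 change in OCI-Ly1 less the log2 change in TMD8. At 150 nM 5 members differed, 2 with a positive and 3 with a negative difference, where 23.3% of 16604 genes did (15% positive, 8.33% negative). PHGDH (-0.97, 95% interval -1.17 to -0.78, adjusted p = 1.3e-07 in edgeR), ASNS (-0.56, -0.72 to -0.40, 1.5e-05) and CTH (-1.67, -2.02 to -1.32, 2.8e-07) rose more in TMD8. MTHFD2 rose in OCI-Ly1 alone of the 2 lines, with a difference of 0.39 (0.23 to 0.56, adjusted p = 8.0e-04 in edgeR). ALDH18A1 fell further in TMD8, with a difference of 0.58 (0.39 to 0.76, adjusted p = 4.2e-05 in edgeR). The difference of PSAT1 was 0.20 (0.03 to 0.36, adjusted p = 0.074 in edgeR), and it passed the threshold without the first 150 nM library of OCI-Ly1 (0.022) and with DESeq2 (0.047). For PSPH (0.16, -0.02 to 0.35), SHMT2 (0.10, -0.04 to 0.25), PYCR1 (-0.06, -0.36 to 0.23) and CBS (-0.08, -0.69 to 0.54) the intervals held 0. On log2(TPM + 1), where the median of all genes stood at 0.11, PSAT1 (0.38, limma adjusted p = 0.02), PSPH (0.34, 0.041), SHMT2 (0.28, 0.04) and CBS (0.23, 0.035) were called. With each library centred, PSAT1 was still called (0.26, limma adjusted p = 0.023) and CBS was not (0.12, 0.41).

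At 500 nM 7 members differed between the lines, 6 with a positive and 1 with a negative difference, where 46.4% of genes did (28.2% positive, 18.1% negative). PSAT1 (1.48, 95% interval 1.32 to 1.64, adjusted p = 5.8e-14 in edgeR), PYCR1 (1.36, 1.07 to 1.66, 2.7e-08), MTHFD2 (1.22, 1.06 to 1.39, 4.2e-12), PSPH (1.13, 0.94 to 1.31, 1.8e-10) and SHMT2 (0.91, 0.76 to 1.06, 1.4e-10) had the higher change in OCI-Ly1. ALDH18A1 again fell further in TMD8, with a difference of 0.58 (0.39 to 0.77, adjusted p = 9.8e-06 in edgeR). PHGDH had a smaller difference, -0.31 (-0.50 to -0.12, adjusted p = 0.0083 in edgeR), which was 0.26 with the opposite sign on log2(TPM + 1) (limma adjusted p = 0.027) and -0.20 (0.055) with each library centred. For ASNS the difference was 0.05 (95% interval -0.11 to 0.21, adjusted p = 0.63 in edgeR), for CTH -0.25 (-0.60 to 0.10, 0.24) and for CBS -0.49 (-1.05 to 0.06, 0.17). On log2(TPM + 1) the differences of ASNS, CTH and CBS were called, at 0.62, 1.12 and 0.82 (limma adjusted p from 3.2e-07 to 4.6e-05), where the median of all genes stood at 0.38. With each library centred, ASNS (0.17, limma adjusted p just under 0.05), CTH (0.67, 8.8e-05) and CBS (0.37, 0.0053) were still called. On log2(TPM + 0.1) ASNS (0.56, limma adjusted p = 5.3e-04) and CTH (0.40, 0.047) were called and CBS was not (0.38, 0.06). Centred or not, log2(TPM + 1) understates the change of genes at low TPM, such as CTH and CBS in TMD8.

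**Figure D4:**
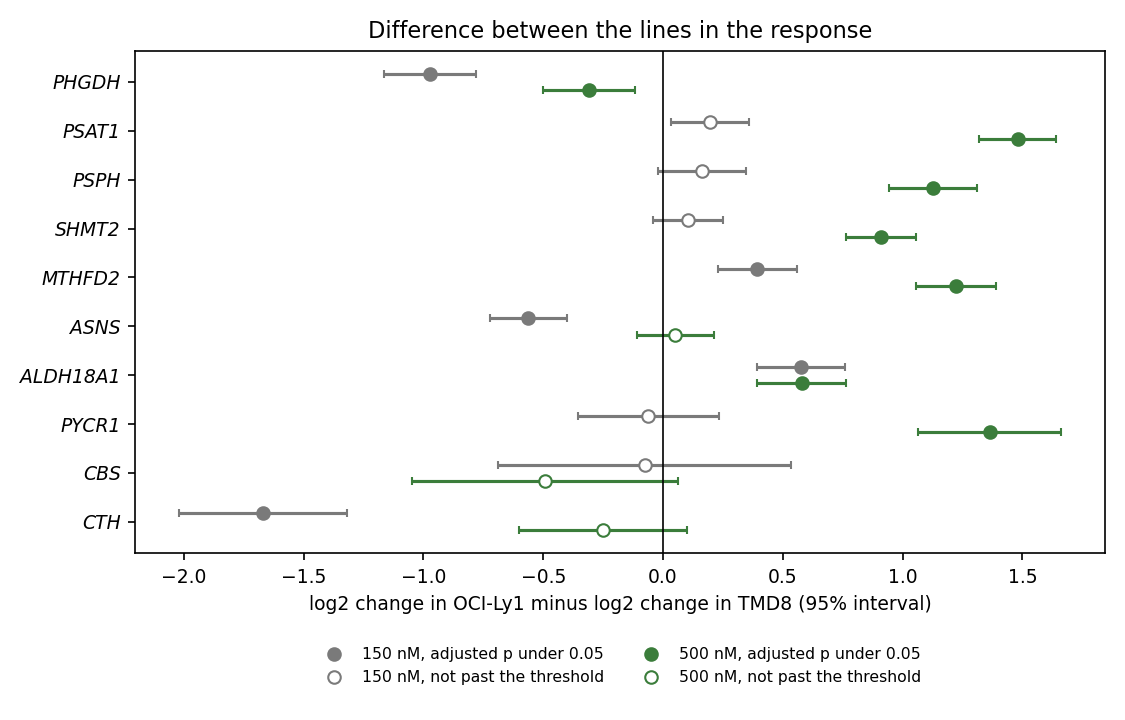
Difference between the lines in the response of each enzyme, as the log2 change in OCI-Ly1 minus the log2 change in TMD8, at 150 nM (grey) and 500 nM (green), with 95% intervals; filled points had an adjusted p under 0.05 in edgeR. At 150 nM PHGDH, ASNS and CTH lie to the left of 0, and at 500 nM PSAT1, PSPH, SHMT2, MTHFD2 and PYCR1 lie between 0.91 and 1.48 to the right.

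The lines also differed before treatment. With DMSO, 7 members were higher and 2 lower in OCI-Ly1 than in TMD8, where 76.7% of 16604 genes differed (37.8% higher, 39% lower). CBS had by far the widest gap, 8.02 on the log2 scale (95% interval 7.80 to 8.25, adjusted p = 6.5e-29 in edgeR), or 260-fold. ASNS (2.87, adjusted p = 2.3e-25 in edgeR), PHGDH (2.32, 1.3e-21), CTH (2.30, 9.1e-15), PSPH (1.45, 9.7e-18), PYCR1 (0.96, 4.3e-09) and SHMT2 (0.92, 1.5e-15) were also higher in OCI-Ly1. MTHFD2 (-0.29, adjusted p = 4.6e-05 in edgeR) and ALDH18A1 (-0.66, 1.8e-10) were lower, and both took the opposite sign on log2(TPM + 1), at 0.67 and 0.30, where the median of all genes moved to 0.61. With each library centred, MTHFD2 was not called (-0.0555, limma adjusted p = 0.40). PSAT1 differed by -0.02 (95% interval -0.14 to 0.10, adjusted p = 0.78 in edgeR), and by 0.13 (0.022) with library size alone. At 500 nM the TMD8 levels of ASNS, PHGDH and PYCR1, at 65.7 to 68.0, 73.8 to 75.0 and 14.3 to 17.1 CPM, were still under those of OCI-Ly1 with DMSO. CTH of TMD8, at 18.7 to 20.6 CPM, was above CTH of OCI-Ly1 with DMSO, but these CPM were scaled within each line. In TPM the order of CTH was reversed, at 4.70 to 5.59 in TMD8 at 500 nM and 5.97 to 6.77 in OCI-Ly1 with DMSO.

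Levels of different genes can be compared as TPM, which corrects for transcript length. In OCI-Ly1 SHMT2 (265 ± 9.11 TPM, SD, n = 3), MTHFD2 (166 ± 3.64) and ASNS (130 ± 0.75) led with DMSO and kept that order at both doses. CBS (88.2 TPM), PHGDH (82.0), PSPH (62.0), ALDH18A1 (45.7), PSAT1 (45.0), PYCR1 (12.5) and CTH (6.41) followed, and only ALDH18A1 and PSAT1 overlapped as neighbours. At 500 nM PSAT1 (271 ± 6.47 TPM) had passed PHGDH, CBS and PSPH, and ALDH18A1 (32.5 ± 1.37 TPM) was last. In TMD8 MTHFD2 (105 ± 15.8 TPM) and SHMT2 (71.6 ± 5.83) led in all 3 groups, ALDH18A1 came next with DMSO (37.2 ± 5.38) and fell behind PSAT1, PHGDH and ASNS at 500 nM (12.6 ± 1.01), where it overlapped PSPH (10.7 ± 1.09), and CBS was last throughout, at 0.19 TPM with DMSO. Summed over the 10 members, TPM rose in OCI-Ly1 from 896 to 919 with DMSO to 1150 to 1184 at 150 nM and 2305 to 2370 at 500 nM across libraries. In TMD8 the sum was 249 to 308 with DMSO, 261 to 282 at 150 nM and 229 to 261 at 500 nM, and these ranges overlapped. The TPM share of MIR3687 in the same libraries was 16.1% to 17.3% with DMSO and 19.1% to 24.4% at 500 nM, and its part in the sum was not tested.

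**Figure D5:**
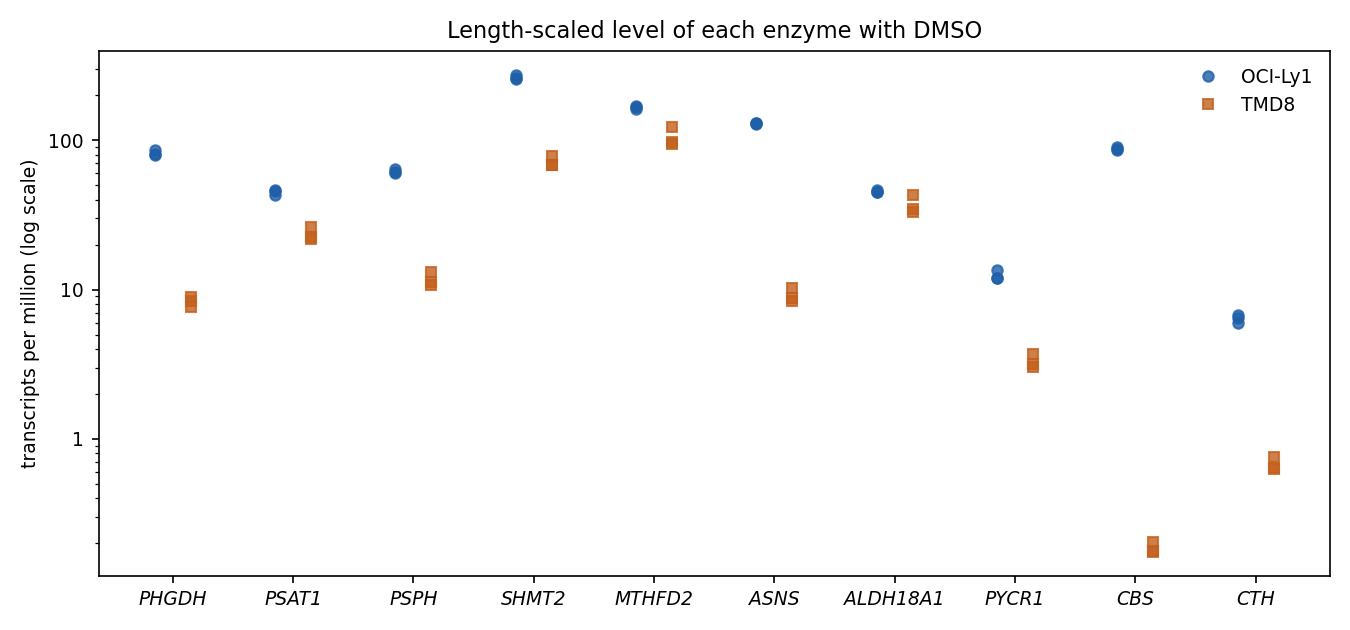
Transcripts per 1000000 of each enzyme with DMSO (log axis) in OCI-Ly1 (circles) and TMD8 (squares), 1 point per library. Within a line the genes can be ranked, with SHMT2 first in OCI-Ly1 and MTHFD2 first in TMD8; between the lines the median of all genes was offset by 0.61 on log2(TPM + 1).

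The members varied together in OCI-Ly1 and less so in TMD8. Over the 9 libraries of a line, the median Pearson correlation of log2 CPM among the 45 pairs of members was 0.985 in OCI-Ly1 and 0.444 in TMD8, from -0.987 to 0.999 and from -0.96 to 0.996. These points share the dose groups, so the values mostly describe the common dose order. Over all 18 libraries, centred by line, PSAT1 followed the mean of the other 9 members most closely (r = 0.978), then PYCR1 (0.961) and ASNS (0.956), SHMT2 (0.784) and CBS (0.74) less so, and ALDH18A1 ran against it (-0.857).

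Of 13854 candidate genes, the 5 whose profile over the 18 libraries was most like the mean profile of the members were CDKN1A, RIMS3 and SNTB1 (r = 0.992 each) and CEBPB and TRIB3 (0.99 each). The libraries again share the dose order, and likeness was measured after centring each line. CDKN1A, a cyclin-dependent kinase inhibitor, had 17.6, 16.2 and 17.4 CPM with DMSO and 144, 141 and 139 CPM at 500 nM in OCI-Ly1; TMD8 had 72.7, 77.9 and 82.6 CPM and then 210, 218 and 222 CPM. TRIB3, a pseudokinase that binds ATF4, had 47.3, 45.8 and 38.7 CPM with DMSO and 275, 262 and 243 CPM at 500 nM in OCI-Ly1; TMD8 had 22.7, 21.6 and 20.7 CPM and then 72.3, 69.7 and 73.4 CPM. RIMS3, known from presynaptic active zones, had means of 29.1 CPM with DMSO and 142 CPM at 500 nM in OCI-Ly1, against 10.5 and 34.0 CPM for TMD8. SNTB1, a syntrophin, had 56.4 and 233 CPM, against 21.1 and 43.9 CPM. As the genes were picked for following a profile that rises with dose, their rise is part of the choice.

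ATF4 mRNA itself rose in both lines, and further in TMD8 by the edgeR fit. It had 523, 522 and 505 CPM with DMSO, 582, 569 and 586 CPM at 150 nM and 828, 826 and 788 CPM at 500 nM in OCI-Ly1. In TMD8 it had 140, 136 and 137 CPM with DMSO, 239, 257 and 268 CPM at 150 nM and 327, 333 and 347 CPM at 500 nM. The groups of each line did not overlap, though the 150 nM change in OCI-Ly1 was not past the threshold (0.17, 95% interval 0.08 to 0.25, adjusted p = 0.081 in edgeR). At 500 nM the log2 change of ATF4 was 0.66 (SE 0.04, adjusted p = 5.1e-10 in edgeR) for OCI-Ly1. For TMD8 it was 1.29 (SE 0.05, adjusted p = 1.1e-12 in edgeR), and the difference between the lines was -0.60 (1.3e-07). As mean TPM, ATF4 of OCI-Ly1 went from 497 with DMSO to 865 at 500 nM. ATF4 of TMD8 went from 71.4 TPM with DMSO to 128.5 TPM at 500 nM. On the TPM scale the rises were closer in proportion, and their difference was not tested. Of the 13 tested regulators of the ATF4 pathway, 10 rose and 2 fell in OCI-Ly1 at 500 nM (median 1.03), and 9 rose and 3 fell in TMD8 (median 1.12). Of all genes tested, 27.7% rose and 25.9% fell at that dose in OCI-Ly1, and 29.9% and 30.7% in TMD8. CEBPB, a partner of ATF4 in binding, rose by 4.10 and 3.02 in the 2 lines, and DDIT3, which encodes CHOP, by 2.96 and 2.94, both with edgeR adjusted p of 2.4e-12 or less. The kinases EIF2AK2, which senses double-stranded RNA, and EIF2AK4, which senses uncharged tRNA, fell, by 0.36 and 0.58 on the log2 scale in OCI-Ly1 and by 0.40 and 0.18 in TMD8 (edgeR adjusted p of 0.014 or less). The EIF2AK2 call in OCI-Ly1 was lost on log2(TPM + 1) (-0.22, limma adjusted p = 0.073), and the EIF2AK4 call in TMD8 with library size alone (-0.085, adjusted p = 0.17 in edgeR).

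Other enzymes of the neighbouring pathways were called in both directions, and few of the counts of rising genes exceeded the share over all genes. In TMD8 the 4 lists had 16.7% to 25% of their genes rising, against 29.9% of all genes, and 43.8% to 66.7% falling, against 30.7%. In OCI-Ly1 the rising share was 21.1% for serine, glycine and folate metabolism and 20% for methionine, cysteine and glutathione metabolism, under the 27.7% of all genes. It was 33.3% for proline and ornithine metabolism and 63.6% for asparagine, aspartate, glutamate and branched-chain enzymes. The lists hold 6 to 19 tested genes each. Of 19 tested genes of serine, glycine and folate metabolism outside the 10, 4 rose and 8 fell in OCI-Ly1 at 500 nM (median log2 change -0.03), and 4 rose and 12 fell in TMD8 (median -0.27). ALDH1L2, which oxidises formyl-folate in mitochondria, rose by 1.08 in OCI-Ly1 and 2.84 in TMD8, whereas ATIC, of purine synthesis, fell by 0.68 and 0.77 and GCSH, of the glycine cleavage system, by 0.49 and 1.14. In proline and ornithine metabolism 2 rose and 3 fell of 6 tested in OCI-Ly1 (median -0.03), and 1 rose and 4 fell of 6 in TMD8 (median -0.28). PRODH, which degrades proline, was the gene that rose in TMD8, by 2.46 from levels of 0.32 to 0.65 CPM with DMSO. It rose by 1.37 in OCI-Ly1, from levels as low, 0.29 to 0.56 CPM. ODC1, of polyamine synthesis, fell by 0.83 in TMD8 and by 0.13 in OCI-Ly1, the latter 0.00 on log2(TPM + 1).

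Among asparagine, aspartate, glutamate and branched-chain enzymes 7 of 11 tested rose and 2 fell in OCI-Ly1 at 500 nM (median 0.32), and 3 of 12 rose and 7 fell in TMD8 (median -0.17). GPT2, the mitochondrial alanine aminotransferase, rose by 1.39 and 1.58, and ASS1, which condenses citrulline with aspartate, by 2.78 and 0.90 in OCI-Ly1 and TMD8. GOT2, the mitochondrial aspartate aminotransferase, fell by 0.33 and 0.83 and BCAT2 by 0.23 and 0.35. In methionine, cysteine and glutathione metabolism 3 of 15 tested rose and 5 fell in OCI-Ly1 (median 0.02), and 4 of 16 rose and 7 fell in TMD8 (median -0.11). CHAC1, which breaks down glutathione and is a known ATF4 target, rose most, by 4.62 and 5.86, from 0.34 to 0.65 CPM with DMSO in TMD8. MAT2A, which makes S-adenosylmethionine, fell by 0.46 and 0.77, CHAC2 by 0.72 and 1.02, and SQRDL, the older symbol of SQOR, rose by 1.66 and 0.44. In OCI-Ly1 SQRDL rose from low levels, 0.23 to 0.59 CPM with DMSO. The SQRDL call in TMD8 (adjusted p = 0.046 in edgeR) was lost with DESeq2 (0.12), on log2(TPM + 1) (0.023, limma adjusted p = 0.82) and without the first or the third DMSO library (0.14 and 0.090) or any 500 nM library (0.25, 0.057 and 0.050), and the other values named in these lists had edgeR adjusted p-values of 0.016 or less. Of those, the OCI-Ly1 calls of BCAT2 and ODC1 and the TMD8 call of EIF2AK4 also hung on single libraries and on scaling. BCAT2 did not pass when DMSO library 1 was left out (adjusted p = 0.072 in edgeR), ODC1 without the second DMSO library or the second or the third 500 nM library (0.053 to 0.064), and EIF2AK4 without the third 500 nM library (0.069). With library size as the only scaling BCAT2 (-0.14, adjusted p = 0.13 in edgeR) and ODC1 (-0.046, 0.33) were not called, nor was BCAT2 on log2(TPM + 1) (-0.13, limma adjusted p = 0.14).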

How the data were processed

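RNA of OCI-Ly1 and TMD8 cells was sequenced after rRNA depletion in paired-end reads of 101 cycles, per the labels' protocols. The authors deposited, for each line, a table of estimated counts and a table of TPM (transcripts per 1000000) over the same 23686 symbols. The submitters' processing notes name kallisto 0.46.0, R 4.3.1, DESeq2 1.40.2 and hg19, without saying which step used each; the index, the annotation and the step from transcripts to genes are not given in the sources used here.

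Estimated counts were rounded to whole numbers and tested with the quasi-likelihood test of edgeR 4.0.16 (R 4.3.3), with TMM scaling, edgeR's low-count filter by group, 1 term per group and Benjamini-Hochberg adjustment over all genes tested, called at 0.05. The 9 libraries of a line were fitted together, and all 18 for the differences between lines. All 10 members passed the filter. The SE is the absolute log2 change divided by the square root of F. TPM served for levels between genes and, as log2(TPM + 1) or log2(TPM + 0.1), for limma 3.58.1; DESeq2 1.42.0 was an alternative. The fits were also run on simulated counts with a fixed spread and few changed genes, unlike these data, and no result here rests on that run. Precision follows the depth: CBS in TMD8 rests on 7 to 26 counts per library, and the other members on more.

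The 18 pairs of libraries within groups differed by more than sampling noise (chi-square per degree of freedom 1.65 to 11.5), so all were kept. The members and the 5 lists of other genes were chosen with earlier results of these data known. Named genes were the members, their paralogues, ATF4, up to 2 rising and 2 falling genes per list by the smaller change of the 2 lines at 500 nM, and the 5 genes of most similar profile. The lists held 90 genes, all matched to the tables, 2 through older symbols; 1 planned enzyme and 1 planned marker are not reported here. Counts were not stated to use strand, so overlapping and antisense genes cannot be told apart.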

Additional observations from a re-analysis of the deposited data

Results flagged for a closer look

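The results below are those in which the change against DMSO differed between OCI-Ly1 and TMD8 by the interaction test of edgeR, given as the log2 change in OCI-Ly1 less the log2 change in TMD8. At 150 nM these were CTH (-1.67), PHGDH (-0.97), ASNS (-0.56), MTHFD2 (0.39) and ALDH18A1 (0.58), with edgeR adjusted p-values of 8.0e-04 or less. At 500 nM the members were PHGDH (-0.31), ALDH18A1 (0.58), SHMT2 (0.91), PSPH (1.13), MTHFD2 (1.22), PYCR1 (1.36) and PSAT1 (1.48), with edgeR adjusted p-values of 0.0083 or less. PHGDH and ASNS thus had the larger rise in TMD8 at 150 nM, while at 500 nM the ASNS difference was not past the threshold and that of PHGDH had narrowed. Other genes named above differed at 500 nM as well. The difference was negative for ALDH1L2 (-1.73), CHAC1 (-1.22), ATF4 (-0.60) and EIF2AK4 (-0.37). It was positive for ASS1 (1.90), CDKN1A (1.60), SQRDL (1.24), CEBPB (1.11), SNTB1 (1.02), TRIB3 (0.87), ODC1 (0.72), GCSH (0.68), MTHFD1 (0.63), RIMS3 (0.62), GOT2 (0.53), MTHFD1L (0.49), MAT2A (0.34) and SHMT1 (0.28). Of these, ODC1, GCSH, MTHFD1, GOT2 and MAT2A fell in both lines by edgeR, further in TMD8. SHMT1 was called lower in TMD8 alone, and EIF2AK4, with its negative difference, fell further in OCI-Ly1. The edgeR adjusted p-values of these 18 genes were 0.0093 or less. Their differences were not recomputed with another scaling, so how far size and sign depend on it was not tested. Line and growth medium changed together and cannot be told apart.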

How the results depend on the processing

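Counts of members called moved by more than 1.5 times in 5 cases, all on TPM. In OCI-Ly1 at 150 nM 8 became 5 on log2(TPM + 0.1) and 5 on centred log2(TPM + 1), in TMD8 at 500 nM against 150 nM 6 became 3 on log2(TPM + 1) and 3 on log2(TPM + 0.1), and the difference between lines at 150 nM went from 5 to 9 on log2(TPM + 1). With each library left out in turn the counts ran from 6 to 8 in OCI-Ly1 at 150 nM, 10 to 10 at 500 nM and 10 to 10 between doses, from 6 to 7, 8 to 9 and 5 to 6 in TMD8, from 5 to 6 and 7 to 7 for the difference between lines, and 9 to 9 with DMSO.

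Signs turned in single genes as follows, as log2 changes. Genes other than the members were recomputed only for 500 nM against DMSO within each line. With library size as the only scaling, SHMT1 was 0.067 and MTHFD2L 0.055 (OCI-Ly1, 500 nM), MTHFD2 0.079 (TMD8, 150 nM), SHMT2 0.057 (TMD8, 500 nM) and PSAT1 0.13 (DMSO, between lines). Without the low-count filter, MTHFD2 was 0.010 (TMD8, 150 nM) and PYCR1 -0.021 (TMD8, 500 nM against 150 nM). With the 2 groups alone, MTHFD2 was 0.0245 (TMD8, 150 nM). On log2(TPM + 1) and log2(TPM + 0.1), in that order, the OCI-Ly1 values at 500 nM were 0.11 and 0.11 for SHMT1, 0.085 and 0.10 for MTHFD2L and 0.0042 and 0.0043 for ODC1. In TMD8, SHMT2 was -0.14 and -0.14 at 150 nM. At 500 nM, PSPH was -0.11 and -0.12, MTHFD2 -0.30 and -0.31 and MTHFD1L -0.025 and -0.027. Between the doses, PSPH was -0.15 and -0.16, MTHFD2 -0.14 and -0.14 and PYCR1 -0.14 and -0.17. The difference between lines at 150 nM was 0.19 and 0.13 for PYCR1 and 0.23 and 0.19 for CBS. At 500 nM it was 0.26 and 0.18 for PHGDH, 0.82 and 0.38 for CBS and 1.12 and 0.40 for CTH. Between lines with DMSO, PSAT1 was 0.92 and 0.94, MTHFD2 0.67 and 0.67 and ALDH18A1 0.30 and 0.31. On centred log2(TPM + 1), SHMT2 was -0.046 (TMD8, 150 nM), MTHFD2 -0.0496 (TMD8, 500 nM), the difference between lines 0.0795 for PYCR1 and 0.12 for CBS at 150 nM and 0.37 for CBS and 0.67 for CTH at 500 nM, and PSAT1 0.19 with DMSO. With each library left out in turn, the values that changed sign ran from -0.043 to 0.057 for MTHFD2 and -0.0029 to 0.050 for SHMT2 (TMD8, 150 nM), from -0.018 to 0.093 for PSPH and -0.057 to 0.067 for PYCR1 (TMD8, 500 nM against 150 nM), from -0.19 to 0.022 for PYCR1 and -0.24 to 0.19 for CBS (difference between lines, 150 nM), and from -0.032 to 0.0082 for PSAT1 (DMSO, between lines). Beyond the scale itself, the cause was not tested. TPM scales moved the median of all genes by -0.22 in TMD8 and 0.10 in OCI-Ly1 at 500 nM on log2(TPM + 1).

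The number in a library's label showed at most a weak pairing. Deviations of libraries of the same number correlated from -0.05 to 0.15, and 4 of 9 libraries in each line correlated best with their own number. With the replicate number as a block the members called stayed at 8, 10 and 10 in OCI-Ly1, 7, 8 and 6 in TMD8, 5 and 7 for the difference between lines and 9 with DMSO. Calls over all genes did move, from 139 to 207 in OCI-Ly1 at 150 nM and from 3867 to 3846 for the difference between lines at that dose. Of 153 results fitted with the block, 1 changed its call, SQRDL in TMD8 at 500 nM (0.44, edgeR adjusted p = 0.056). Low depth limited CBS in TMD8 most. The share of higher among all called genes moved from 49.3% to 17.8% in TMD8 at 500 nM on log2(TPM + 1), and from 51.6% to 71.7% in OCI-Ly1.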
